A study of Mus musculus with 6 samples.

Results

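The respiratory chain genes of NIH-3T3, a mouse fibroblast cell line, were compared between pools that had received a guide RNA against pyruvate carboxylase (PC) and pools that had received a control guide. The genes were chosen by symbol: names starting with Nduf, Sdha to Sdhd, Uqcr, Cox followed by a digit, Atp5 or mt-, and Cycs and Cyc1, with pseudogenes left out. The rule found 130 of the 16540 genes in the table. Of these, 83 were nuclear genes for subunits or cytochrome c, 21 were nuclear assembly factors and 26 were mitochondrially encoded, namely 12 for proteins and 14 for transfer RNAs. The assembly factors were the genes named Ndufaf and Sdhaf and those from Cox10 to Cox20, which were not counted under complex IV. All 130 met the detection filter, a normalised read count of 10 or more in 2 or more libraries. A further 16 annotated genes with fitting symbols, mt-Nd3, Cox6b2 and Cox8b among them, were not analysed here.

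The study had 3 groups of 2 libraries: cells with the guide PC sg2, cells with the guide PC sg5, and cells with the guide R26 sg1, which the labels call the control. The line is of NIH/Swiss origin. Cells of every group carried lentiviral Cas9, had been selected with 2 ug/mL puromycin, and were used as polyclonal pools, so a library may mix edited and unedited cells. For all pools the last 48 h of culture were at 0.2 mM glutamine with dialyzed serum at 10%, and poly(A)+ RNA was sequenced. The series concerns pyruvate carboxylase in fibroblasts and collagen production. Whether both libraries of a guide were grown as separate cultures is not given, so every p-value rests on a spread between samples that may be technical.

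The respiratory chain moves electrons from NADH (complex I) and succinate (complex II) through coenzyme Q to complex III, then through cytochrome c to complex IV, which reduces oxygen. Complexes I, III and IV pump protons, and complex V uses the gradient to make ATP. Complex II is wholly nuclear encoded, while the other complexes join nuclear subunits to a few encoded by mitochondrial DNA, and dedicated assembly factors insert cofactors and join the parts. Pyruvate carboxylase sits in the same organelle and feeds oxaloacetate into the TCA cycle, to which complex II also belongs.

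Recovered reads came to 63701586 and 46661048 with PC sg2, 48897258 and 22895172 with PC sg5, and 69337013 and 71710049 in the control. A count of 3 reads corresponded to between 2.18 and 6.41 normalised counts, a limit that covers counting error only. Between the replicates of a group, the chi-square per degree of freedom was 4.05 with PC sg2, 3.15 with PC sg5 and 4.42 in the control, so no libraries were counted as 1 sample. The targeted gene, Pcx, had 316 and 375 normalised counts with PC sg2, 713 and 716 with PC sg5, and 2914 and 3015 in the control. All 8 fibroblast markers were listed and lower in the PC pools by limma (7 under quantile normalisation), and their summed level lay between 910900 and 946700 in the 4 PC libraries and between 1588000 and 1644000 in the controls. Of the markers of other cell types, Ptprc, Adgre1, Epcam, Krt8, Cdh5, Kdr, Myod1, Myog, Myh3, Adipoq, Plin1 and Rbfox3 were not analysed here, and those listed were low, the highest being Tubb3 at 136 to 195 normalised counts in the PC libraries and 310 to 376 in the controls. The part of these markers in the values below was not tested.

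With both PC guides against control, single respiratory chain genes moved in opposite directions, and the members' median stayed near 0. Cycs, the gene of somatic cytochrome c, reached 229.6% of its control mean, 3 of the 9 nuclear complex III genes reached 158% to 159%, and 14 of the 21 assembly factors rose. Complex II changed in 1 of 4 genes, and complexes I, IV and V held genes that rose and genes that fell in similar numbers. Of the 130 genes, 47 rose and 40 fell with both PC guides against control (limma, Benjamini-Hochberg adjusted p under 0.05 over all genes tested). That is 66.9% of them, against 67.9% of all 16526 genes tested (34.3% higher and 33.6% lower), so the share that passed was near that of all genes. Among genes averaging 1000 normalised counts or more, 77.65% of 85 nuclear members passed, against 85.37% of all such genes. The changes were small: 4 of the 130 passed at 2-fold or more, against 17.8% of all genes. Among the 104 nuclear members the median size of the log2 fold change was 0.24, against 0.44 over all genes and 0.36 over the 7915 genes averaging 1000 normalised counts or more. The median signed log2 fold change was 0.02 for the nuclear members and -0.01 for all genes. Where groups are said below not to overlap, this describes the values of that gene only. The share of all genes without overlap was not counted. Since the libraries come from whole pools, less RNA per cell and fewer cells with that RNA cannot be told apart in any of these values.

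**Figure D1:**
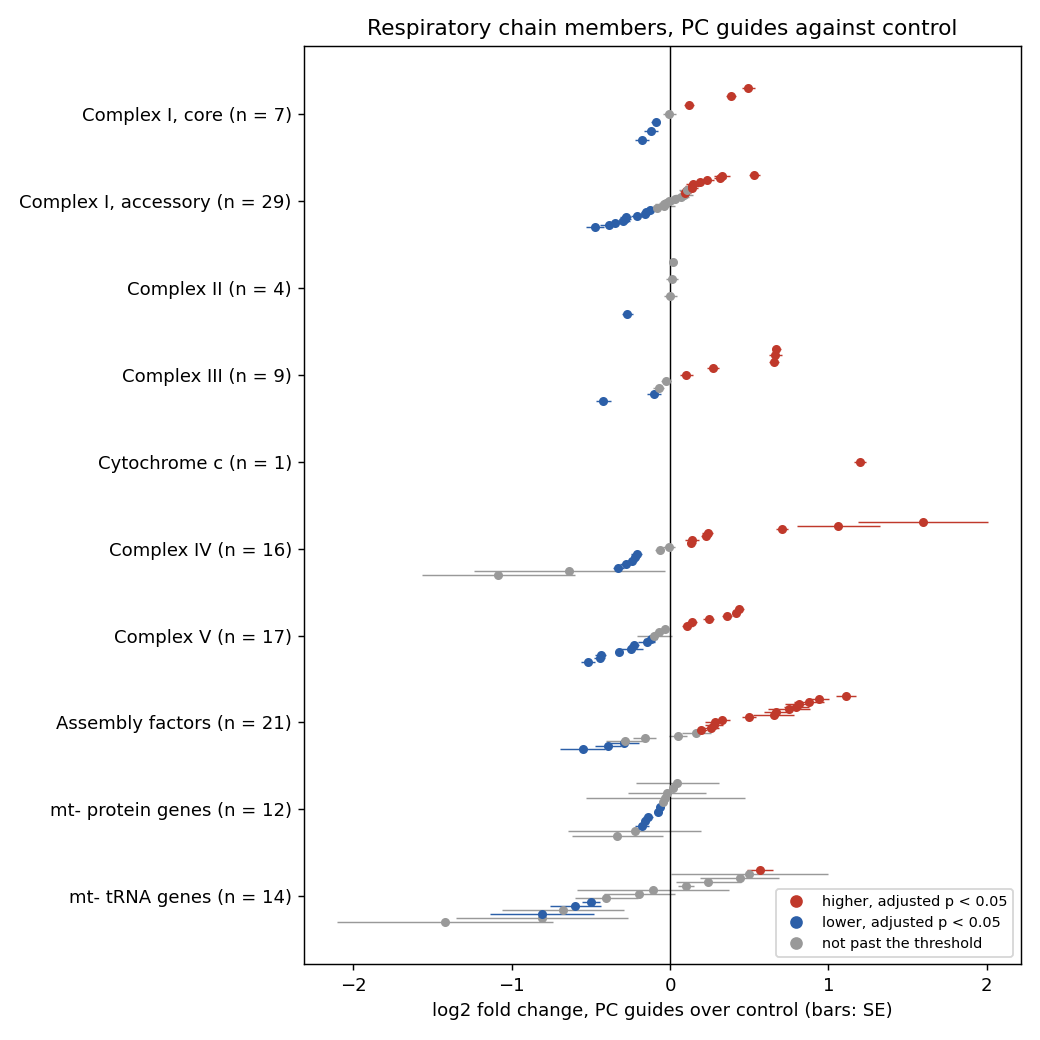
Log2 fold change of each of the 130 respiratory chain genes for both PC guides over control, on the horizontal axis, with bars for the standard error and genes grouped by complex down the page. Complex II sits near 0 apart from 1 gene, the assembly factors lie mostly to the right of 0, and the mt- protein genes with small error bars lie at or slightly to the left of 0.

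Complex I takes electrons from NADH, and its core subunits carry the flavin and the iron-sulfur clusters. Of its 36 nuclear genes, 13 rose and 13 fell, with a median log2 fold change of -0.01. When libraries were scaled to totals without the 50 most abundant genes, 16 rose and 10 fell, and without control replicate 1 the 13 that rose became 7. Among the 7 core genes 3 rose and 3 fell, or 3 and 1 with those totals. Ndufs7, which holds the last iron-sulfur cluster before coenzyme Q, had 4155 and 4566 normalised counts with PC sg2, 4455 and 4764 with PC sg5, and 3227 and 3135 in the control. The log2 fold change was 0.49 ± 0.04 (SE), with an adjusted p of 7.5e-10 by limma, and all 4 PC libraries lay above both controls. Ndufv1, the NADH-binding flavoprotein, rose as well, to 7401 ± 179 (SD, n = 4) in the PC libraries against 5666 ± 134 (SD, n = 2) in the control. Ndufv2, its partner in the NADH-binding module, fell by 0.18 ± 0.04 (SE) on the log2 scale, with 2764 ± 89.5 (SD, n = 4) in the PC libraries against 3124 ± 85.8 (SD, n = 2) in the control. Both genes had PC libraries that lay apart from the controls, on opposite sides.

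The 29 accessory genes of complex I, which surround the core and carry no redox cofactor of the main path, split into 10 higher, 10 lower and 9 not past the threshold. Ndufa12 rose most, with 6106 and 5717 normalised counts with PC sg2, 6196 and 6167 with PC sg5, and 4205 and 4151 in the control, a log2 fold change of 0.53 ± 0.03 (SE). A processed copy of Ndufa12, Gm15920, matched it at 99.5% identity over 89.3% of the coding sequence and was listed at 475 to 570 normalised counts in the PC libraries and 365 to 367 in the controls, so the split of reads between them is uncertain. Ndufa3, a small membrane subunit, fell most, with 1109 and 1088 with PC sg2, 1292 and 1163 with PC sg5, and 1623 and 1600.4 in the control. The log2 fold change was -0.47 ± 0.06 (SE), and neither gene's PC and control values overlapped. Without control replicate 1, 5 accessory genes in place of 10 passed as higher, and 10 as lower.

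Complex II, succinate dehydrogenase, is the enzyme shared by the chain and the TCA cycle, and 3 of its 4 genes did not pass the threshold. Sdha, the flavoprotein that oxidises succinate, had 12517 and 12407 normalised counts with PC sg2, 12191 and 12122 with PC sg5, and 12106 and 12195 in the control. Sdhb, the iron-sulfur subunit, averaged 3637 ± 162 (SD, n = 4) in the PC libraries and 3634 ± 9.08 (SD, n = 2) in the control, while Sdhd, a membrane anchor, averaged 3514 ± 129.9 (SD, n = 4) in the PC libraries and 3484 ± 52.9 (SD, n = 2) in the control. The PC and control libraries overlapped for all 3 genes, with log2 fold changes of 0.02 ± 0.03 (SE) for Sdha, 0.00 ± 0.04 for Sdhb and 0.01 ± 0.04 for Sdhd. Under quantile normalisation, and with totals that left out the 50 most abundant genes, Sdha passed as higher with log2 fold changes of 0.07 and 0.06. Sdhc, the other anchor, fell by 0.27 ± 0.03 (SE) on the log2 scale. It had 4156 and 4359.9 with PC sg2, 4593 and 4581 with PC sg5, and 5369 and 5295 in the control, and all PC values were below both controls.

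Complex III passes electrons from reduced coenzyme Q to cytochrome c, and cytochrome c1, encoded by Cyc1, makes the last step. Cyc1 had 9066 and 9456 normalised counts with PC sg2, 9595 and 9482 with PC sg5, and 6066 and 5845 in the control, a log2 fold change of 0.66 ± 0.03 (SE) with an adjusted p of 2.38e-14 by limma. Uqcrq, a small subunit bound to cytochrome b, rose by 0.67 ± 0.03 (SE) on the log2 scale, to 9247 ± 271 (SD, n = 4) in the PC libraries, against 5807 ± 17.0 (SD, n = 2) in the control. Uqcr10, another small subunit beside cytochrome c1, reached 4955 ± 219 (SD, n = 4) in the PC libraries against 3123 ± 54.6 (SD, n = 2) in the control. The 3 genes stood at 158% to 159% of their control means, with no overlap between groups.

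The other complex III genes moved less or in the opposite direction. Uqcrc1, a core protein, and Uqcrfs1, the Rieske iron-sulfur protein, did not pass the threshold, at log2 fold changes of -0.02 ± 0.03 and -0.07 ± 0.04 (SE). Uqcrh, the acidic hinge protein that sits next to cytochrome c1, fell, with 2666 and 2516 normalised counts with PC sg2, 2567 and 2909 with PC sg5, and 3457 and 3669 in the control. Its log2 fold change was -0.42 ± 0.05 (SE). In all, 5 of the 9 genes rose and 2 fell, which became 4 and 3 under quantile normalisation, and 5 and 1 with totals without the 50 most abundant genes. When any library other than PC sg5 replicate 1 was left out, 1 gene in place of 2 passed as lower. With 1 library left out, 4 or 5 genes passed as higher, and the median log2 fold change lay between 0.02 and 0.18. DESeq2 gave 4 higher and 1 lower. Levels were also corrected for the merged length of a gene's annotated exons. This scale, TPM, has a fixed sum over the listed genes of a library. The merged length may exceed that of the transcript in use, so levels of different genes compare only roughly. In TPM, the 9 nuclear genes of complex III summed to a level of 2384 ± 57.8 (SD, n = 4) in the PC libraries and 1916 ± 14.3 (SD, n = 2) in the control. That ratio of 1.24 compares with 1.02 for complex I, 0.996 for complex II, 1.00 for complex IV and 1.02 for complex V.

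Cytochrome c, the soluble carrier between complexes III and IV and a trigger of caspase activation when released, is encoded by Cycs, which rose more than any other nuclear member with a mean above 100 normalised counts. Cycs had 4571 and 4761 normalised counts with PC sg2, 4872 and 4909.9 with PC sg5, and 2129.9 and 2033 in the control. The PC mean was 229.6% of the control mean, and the log2 fold change of 1.20 ± 0.04 (SE) had an adjusted p of 3.62e-17 by limma. On the per-length scale Cycs stood at 96.2 TPM in the PC libraries against 41.0 TPM in the control. Hccs, the lyase that attaches heme to cytochromes c and c1, also rose, to 2746 ± 39.4 (SD, n = 4) in the PC libraries against 1868 ± 39.6 (SD, n = 2) in the control. The Cycs promoter from RefSeq (GRCm38.p6, chr6:50566520-50566819, minus strand, 300 bases around the start) is shown because Cycs rose most among the abundant members, and because it holds a full cyclic AMP response element, TGACGTCA, which is in capitals.
Cycs: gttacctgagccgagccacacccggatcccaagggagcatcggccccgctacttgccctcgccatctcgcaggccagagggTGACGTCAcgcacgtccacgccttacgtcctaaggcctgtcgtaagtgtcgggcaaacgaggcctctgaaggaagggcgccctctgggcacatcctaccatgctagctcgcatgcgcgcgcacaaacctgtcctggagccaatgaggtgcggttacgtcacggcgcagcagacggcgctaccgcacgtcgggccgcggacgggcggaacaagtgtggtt

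A set of 5 motifs was searched on both strands of the RefSeq promoters, which matched 85 of the 104 nuclear members. TGACGTCA was found in 5 of them (5.88%), against 2.03% of all 27025 genes with a promoter. The 5 were Cycs, Ndufa10, Ndufa11, Ndufb2 and Uqcrfs1, of which 3 rose, 0 fell and 2 did not pass. The 27025 genes were not limited to those listed here, and expressed genes alone were not compared. The palindrome of NRF1, nuclear respiratory factor 1, which is GCGCA followed by its reverse complement TGCGC, was in 7 (8.24%) against 1.07%, and 4 of these genes rose, 2 fell and 1 did not pass. AAGATGGCG, bound by YY1, was in 9 (10.6%) against 1.64%, with 4 higher, 2 lower and 3 not past the threshold. ACCGGAAG, bound by ETS factors, was in 7 (8.24%) against 2.60%, with 2 higher, 2 lower and 3 not past. CACGTG, the E-box, was in 6 (7.06%) against 8.09%, with 4 higher, 2 lower and 0 not past. Only exact matches were counted, so near matches were left out, such as CGCATGCGC in the Cycs promoter above. A match is a description of the letters in these windows only.

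**Figure D2:**
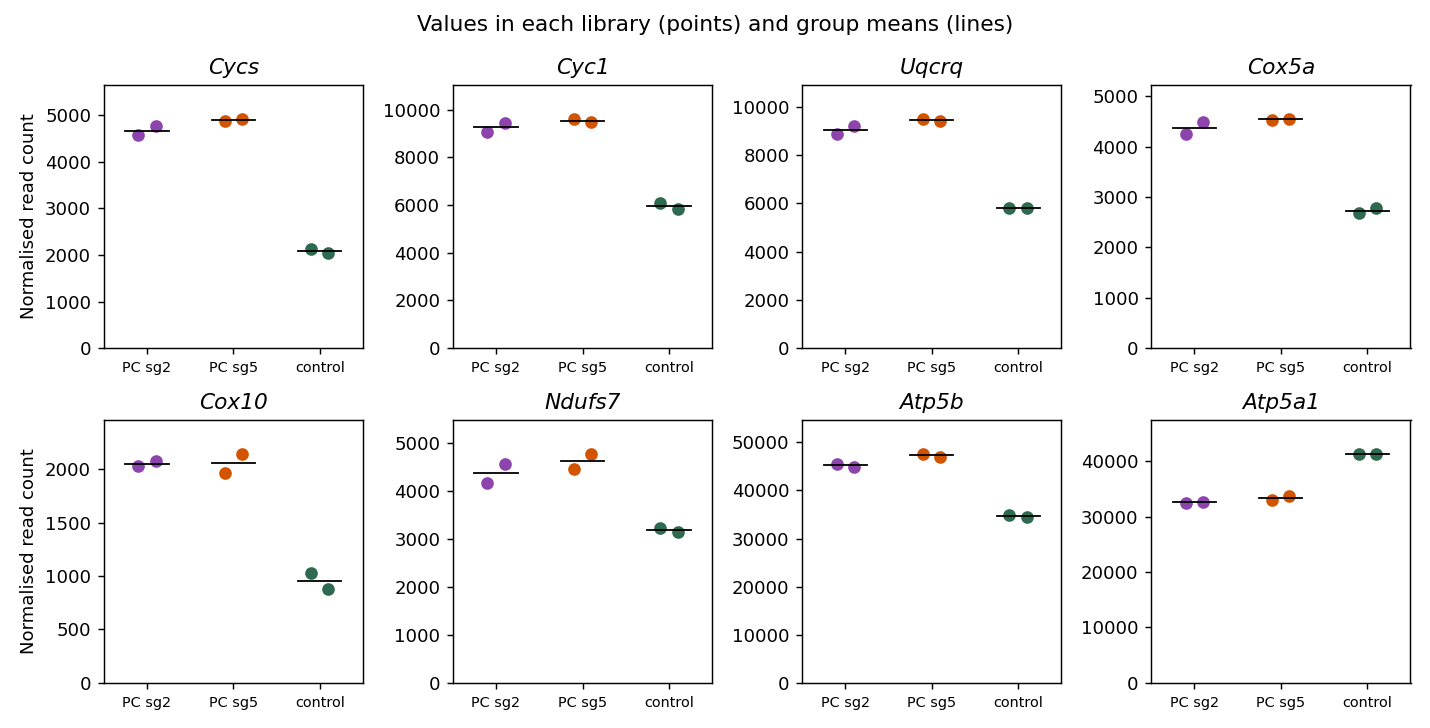
Normalised read counts of 8 named genes in each library, with points for the libraries of PC sg2, PC sg5 and control from left to right and lines for the group means. Cycs, Cyc1, Uqcrq, Cox5a, Cox10, Ndufs7 and Atp5b are higher in all 4 PC libraries than in both controls, and Atp5a1 is lower.

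Complex IV, cytochrome c oxidase, hands electrons to oxygen. Of its 16 nuclear genes 7 rose and 5 fell, with a median log2 fold change of -0.04. Cox5a, a ubiquitous subunit on the matrix side, moved most among the abundant ones, with 4244 and 4499 normalised counts with PC sg2, 4536 and 4544 with PC sg5, and 2681 and 2782 in the control. That is a log2 fold change of 0.71 ± 0.04 (SE). Cox4i1, the usual form of subunit 4, which contacts Cox5a in the enzyme, moved the other way, at 18631 ± 255 (SD, n = 4) in the PC libraries and 21731 ± 41.9 (SD, n = 2) in the control, a log2 fold change of -0.22 ± 0.02 (SE). Ndufa4, first assigned to complex I and now to complex IV, fell most among the members past the threshold, to 4672 ± 211 (SD, n = 4) in the PC libraries against 5859 ± 31.0 (SD, n = 2) in the control. The log2 fold change was -0.33 ± 0.03 (SE), with all PC libraries below both controls.

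Several complex IV subunits exist as tissue-specific or oxygen-dependent forms. The muscle forms Cox7a1 and Cox6a2 were rare and higher in the PC pools. Cox7a1 had 27.3 and 23.4 normalised counts with PC sg2, 33.4 and 36.3 with PC sg5, and 12.7 and 6.53 in the control, a log2 fold change of 1.60 ± 0.41 (SE), which fell short of the threshold at 1.17 without control replicate 2. Cox6a2 had 49.1 and 57.4 with PC sg2, 75.9 and 74.8 with PC sg5, and 30.6 and 29.0 in the control, a log2 fold change of 1.06 ± 0.26 (SE). Of the muscle markers, Des, at 11.7 to 26.3 normalised counts in the PC libraries and 72.3 to 90.6 in the controls, was lower, and Myod1, Myog and Myh3 were not analysed here. Their common counterparts Cox7a2 and Cox6a1 rose slightly, with log2 fold changes of 0.14 ± 0.04 and 0.13 ± 0.03 (SE), and per length remained the main form in every group. Cox6a1 averaged 1147 TPM in the PC libraries and 1024 TPM in the control, while Cox6a2 averaged 6.48 TPM in the PC libraries and 2.94 TPM in the control.

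The forms linked to low oxygen were rare. Ndufa4l2, a relative of Ndufa4 induced by hypoxia-inducible factor, averaged 9.81 ± 1.76 normalised counts (SD, n = 4) in the PC libraries and 21.7 ± 0.950 (SD, n = 2) in the control, with no overlap. Its log2 fold change of -1.08 ± 0.48 (SE) for both guides did not pass by limma (adjusted p = 0.0526) and did by edgeR (-1.16). By guide it was -1.28 with PC sg5, which passed by limma (adjusted p = 0.0496), and -0.88 with PC sg2, which did not (adjusted p = 0.174), and PC sg5 against PC sg2 did not pass (adjusted p = 0.857). Cox4i2, the alternative form of subunit 4, lay between 4.05 and 11.7 in the PC libraries and at 14.9 and 10.2 in the control, and the groups overlapped. Cox7a2l, which joins complexes III and IV into supercomplexes, rose to 7537 ± 369 (SD, n = 4) in the PC libraries against 6384 ± 55.4 (SD, n = 2) in the control. It is identical to Gm6969 over 50% of its coding sequence, and that copy was listed at 3875 to 4442 normalised counts in the PC libraries and 3331 to 3577 in the controls, so this value is uncertain. Cox6b1 and Cox8a, both ubiquitous, did not pass, at log2 fold changes of -0.01 ± 0.04 and -0.07 ± 0.03 (SE).

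Complex V, ATP synthase, joins a catalytic head of alternating alpha and beta subunits to a membrane rotor of c subunits. Of its 17 nuclear genes 6 rose and 8 fell, with a median log2 fold change of -0.10. With totals without the 50 most abundant genes 6 rose and 6 fell, and without the intensity trend 5 rose and 5 fell. The head's main pair moved apart. Atp5b, the catalytic beta subunit, had 45443 and 44955 normalised counts with PC sg2, 47566 and 47025 with PC sg5, and 34834 and 34470.5 in the control. Atp5a1, the alpha subunit, had 32506 and 32638 with PC sg2, 32970.3 and 33698 with PC sg5, and 41308 and 41222 in the control. The log2 fold changes were 0.42 ± 0.02 and -0.32 ± 0.02 (SE). The ratio of Atp5b to Atp5a1 counts was 1.40 and 1.38 with PC sg2, 1.44 and 1.40 with PC sg5, and 0.843 and 0.836 in the control, so the gene of the pair with more counts differed between the groups. Corrected for merged exon length, the genes stood at 748 TPM (Atp5b) and 720.2 TPM (Atp5a1) in the PC libraries, against 549 TPM (Atp5b) and 884 TPM (Atp5a1) in the control. The lengths used were 4237 bases for Atp5b and 3135 for Atp5a1, and the TPM levels of the pair depend on them.

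The stalks also held genes that rose and genes that fell. Atp5f1, the b subunit of the peripheral stalk, rose most in the complex, with 10641 and 10896 normalised counts with PC sg2, 10544 and 10741 with PC sg5, and 7933 and 7870.2 in the control, a log2 fold change of 0.44 ± 0.03 (SE). Atp5d, the delta subunit of the central stalk, rose by 0.36 ± 0.03 (SE) on the log2 scale. Atp5e, the epsilon subunit that binds to delta, fell most, with 1916 and 1999 with PC sg2, 2090.0 and 2063 with PC sg5, and 2811 and 2958 in the control, a log2 fold change of -0.52 ± 0.04 (SE). None of these 3 genes had overlapping groups.

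The c ring is made of 1 mature protein that 3 genes encode with different import sequences. The 3 genes did not move alike. Atp5g1 rose, with 4981 and 5261 normalised counts with PC sg2, 5270.5 and 5325 with PC sg5, and 4345 and 4457 in the control. Atp5g2 fell, with 4321 and 4467 with PC sg2, 4386 and 4328 with PC sg5, and 5921 and 5942 in the control. Atp5g3 also fell, by 0.23 ± 0.03 (SE) on the log2 scale, against log2 fold changes of 0.24 ± 0.03 for Atp5g1 and -0.44 ± 0.03 for Atp5g2. Of the summed counts of the 3 genes, Atp5g1 made up 30.1% to 30.7% in the PC libraries and 22.8% to 23.0% in the controls, while Atp5g2 made up at most 26.1% in the PC libraries and at least 30.6% in the controls. The sum itself lay between 16536 and 17433 in the PC libraries, under the 19023 and 19407 of the controls. Near-identical processed copies were listed at low levels, Gm10039 for Atp5g1 at 186 to 242 normalised counts in the PC libraries and 183 to 211 in the controls, and Gm10175 for Atp5g2 at under 50 in every library. The 3 promoters are shown because their genes encode 1 mature protein and moved apart (RefSeq, GRCm38.p6, minus strand, 300 bases around the start, at chr11:96075582-96075881, chr15:102670998-102671297 and chr2:73911277-73911576). Capitals mark CACGTG in Atp5g1 and Atp5g3 and the NRF1 palindrome in Atp5g2.
Atp5g1: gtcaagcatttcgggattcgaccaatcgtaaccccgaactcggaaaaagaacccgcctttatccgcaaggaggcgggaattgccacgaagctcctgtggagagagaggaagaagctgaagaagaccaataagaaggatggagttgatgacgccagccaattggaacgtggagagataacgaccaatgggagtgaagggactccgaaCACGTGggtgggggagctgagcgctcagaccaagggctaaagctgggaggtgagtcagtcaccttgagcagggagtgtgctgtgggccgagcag
Atp5g2: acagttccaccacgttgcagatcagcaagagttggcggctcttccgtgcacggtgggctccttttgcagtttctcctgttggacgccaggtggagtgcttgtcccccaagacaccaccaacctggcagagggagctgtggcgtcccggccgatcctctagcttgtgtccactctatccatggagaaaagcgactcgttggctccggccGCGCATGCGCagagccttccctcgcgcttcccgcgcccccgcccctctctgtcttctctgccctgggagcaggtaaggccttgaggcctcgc
Atp5g3: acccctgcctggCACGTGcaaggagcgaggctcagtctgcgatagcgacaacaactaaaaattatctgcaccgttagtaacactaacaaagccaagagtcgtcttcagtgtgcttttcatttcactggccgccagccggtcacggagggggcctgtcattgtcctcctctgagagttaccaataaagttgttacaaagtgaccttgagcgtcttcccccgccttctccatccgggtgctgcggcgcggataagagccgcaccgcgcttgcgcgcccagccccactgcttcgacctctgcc

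**Figure D3:**
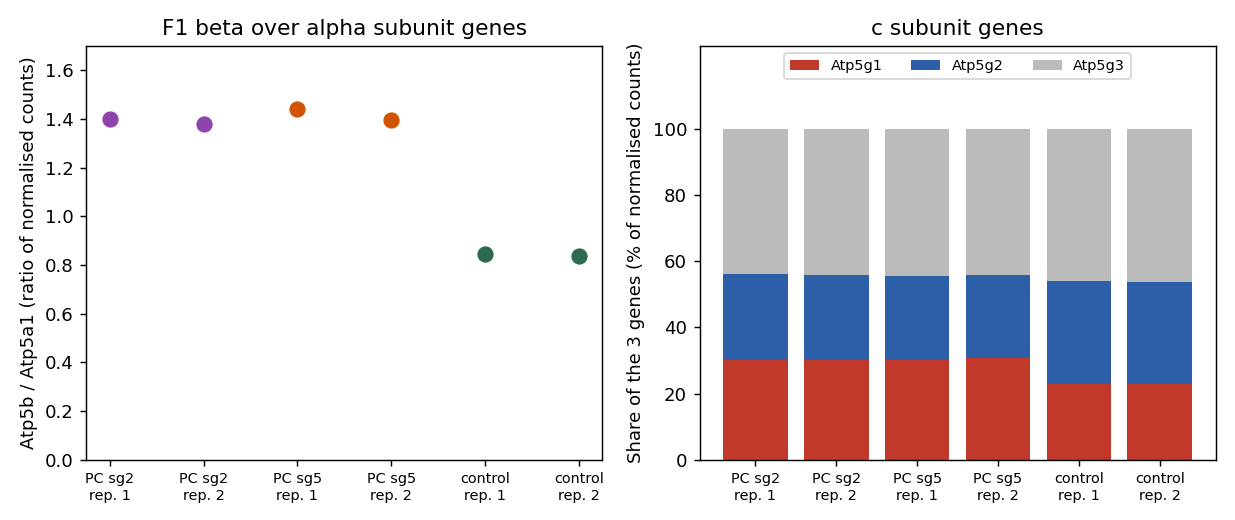
Left, the ratio of Atp5b to Atp5a1 normalised counts in each library; right, the share of each c subunit gene in the summed counts of Atp5g1, Atp5g2 and Atp5g3. The ratio lies between 1.38 and 1.44 in the 4 PC libraries and at 0.843 and 0.836 in the controls, and the share of Atp5g1 is larger in every PC library.

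Among the classes of more than 1 gene, assembly factors had the largest share of higher genes: 14 of 21 rose, 3 fell and 4 did not pass the threshold, at a median log2 fold change of 0.28. For all genes tested the shares were 34.3% higher and 33.6% lower. The summed level of the assembly factors was 918 ± 14.6 TPM (SD, n = 4) in the PC libraries and 766 ± 7.49 (SD, n = 2) in the control. Cox10, which makes heme O on the way to the heme A of complex IV, rose most, with 2025 and 2077 normalised counts with PC sg2, 1967 and 2142 with PC sg5, and 1029.9 and 875 in the control. The log2 fold change was 1.11 ± 0.06 (SE), with an adjusted p of 4.62e-13 by limma. Cox15, the next enzyme of heme A synthesis, rose by 0.26 ± 0.05 (SE) on the log2 scale.

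Factors of complexes I and II were among the larger changes. Ndufaf4, an early complex I factor, had 1148 and 1331 normalised counts with PC sg2, 1230.1 and 1278 with PC sg5, and 627 and 672 in the control, a log2 fold change of 0.94 ± 0.07 (SE). Ndufaf5, which modifies Ndufs7, rose by 0.81 ± 0.09 (SE) and Sdhaf3, which helps Sdhb to receive its iron-sulfur clusters, by 0.88 ± 0.10 (SE) on the log2 scale, while Sdhb itself did not pass. Cox20, a chaperone of the newly made mt-Co2 protein, fell most, with 171 and 172 with PC sg2, 173 and 235 with PC sg5, and 267 and 279 in the control. Of its exon bases 91.1% lie under another annotated gene, so without strand information its reads cannot be told from that gene's. The same limit holds for Sdhaf1 (69.6%), Ndufaf2 (65.6%), Cox16 (56.8%) and Cox11 (48.3%), of which Sdhaf1, Ndufaf2 and Cox11 count among the 14 that rose.

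Assembly factors whose symbols fall outside the rule showed more higher than lower genes too. Of 34 such genes 31 were listed, with 16 higher, 6 lower and 9 not past the threshold, and a median log2 fold change of 0.13. The shares over all genes tested were 34.3% higher and 33.6% lower. Coa7, a factor of complex IV, had 1069 and 1155 normalised counts with PC sg2, 1038 and 1116 with PC sg5, and 409 and 445 in the control, a log2 fold change of 1.36 ± 0.07 (SE). Sco1, which delivers copper to complex IV, rose by 0.89 ± 0.05 (SE) and Tmem126a, a complex I factor, by 0.91 ± 0.05 (SE) on the log2 scale. Oxa1l, which inserts mitochondrially made proteins into the inner membrane, fell, with 2350.2 ± 85.4 normalised counts (SD, n = 4) in the PC libraries against 2874 ± 146 (SD, n = 2) in the control.

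Mitochondrial DNA encodes the hydrophobic core subunits of complexes I, III, IV and V. Its protein genes summed to 41051 ± 895 TPM (SD, n = 4) in the PC libraries and 42907 ± 817 TPM (SD, n = 2) in the control. Of the 12 listed, 0 rose and 5 fell, all by small amounts, with a median log2 fold change of -0.07. The count that fell was 3 without PC sg2 replicate 2 and 2 without control replicate 1. mt-Co1, the catalytic subunit of complex IV and the most abundant member, had 325912 and 314625 normalised counts with PC sg2, 324346 and 315910.0 with PC sg5, and 361737 and 351896 in the control. Its log2 fold change was -0.16 ± 0.02 (SE), with all 4 PC libraries below both controls. mt-Nd5, a proton-pumping subunit of complex I, averaged 91210.0 ± 4374 (SD, n = 4) in the PC libraries and 100491 ± 3189.6 (SD, n = 2) in the control, a log2 fold change of -0.14 ± 0.03 (SE). mt-Cytb, the cytochrome b of complex III, did not pass, at 156266 ± 4432 (SD, n = 4) in the PC libraries and 154432 ± 3335 (SD, n = 2) in the control. For comparison, Cyc1 of the same complex, encoded in the nucleus, stood at 158% of its control mean.

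The counts and the direction of these small mt- changes depended on the scaling. TMM scaling gave 0 of the 12 genes higher and 5 lower, and DESeq2 gave 0 and 4. With totals that left out the 50 most abundant genes, 1 was higher and 3 lower. Under quantile normalisation 5 were higher and 0 lower, with mt-Nd5 at 0.13, mt-Cytb at 0.45 and mt-Co1 at 0. That method keeps only the order of genes within a library, and that order changed among abundant genes. Vim averaged 336938 normalised counts in the control, above mt-Cytb at 154432, and 132287 in the PC libraries, below mt-Cytb at 156266. The part of this order in the quantile values was not tested. DESeq2 scales libraries as the deposited values are scaled, so its counts are no separate check of the scaling. The direction for these genes was therefore not settled. In each of the 3 groups, replicate 1 also had more counts than replicate 2 for all 7 abundant mt- protein genes, a pattern shown by 13.8% of all listed genes, and its part in the result was not tested.

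Reads of mt- protein genes fell into 2 ranges. mt-Co1, mt-Cytb and the Nd genes other than mt-Nd4l had 20614 or more normalised counts in every library, whereas mt-Co2, mt-Co3, mt-Atp6, mt-Atp8 and mt-Nd4l had at most 74.8, although all lie on the same genome. Each of mt-Co2, mt-Co3, mt-Atp6 and mt-Nd4l has a nuclear copy, identical over 99.9% or 100% of its coding bases, in a block of nuclear DNA on GRCm38 chromosome 1, from 24611535 to 24616197. The copies were listed at 36.1 to 168 normalised counts in the PC libraries and 48.6 to 197 in the controls. The values of these low genes are therefore uncertain and are not read as a difference. mt-Co1 has a full-length copy on chromosome 2, Gm13340, at 97.6% identity, which was listed at 34.3 to 51.3 normalised counts in the PC libraries and 40.3 to 43.5 in the controls. Copies and levels did not go together in every gene. The abundant mt-Nd4 is identical to Gm28439 over 63.6% of its coding bases, mt-Co1 matches Gm29216 on chromosome 1 at 99.8% identity over 31.1%, and the low mt-Atp8 is identical to Gm10925 over only 19.9%. The first 90 coding bases of a pair of each kind, from the M21 transcripts, are shown: mt-Atp6 and Gm10925 (chr1:24613974-24614651, minus strand) are identical there, while 3 bases differ between mt-Co1 and Gm13340 (chr2:22588103-22589647, minus strand) and are in capitals.
mt-Atp6: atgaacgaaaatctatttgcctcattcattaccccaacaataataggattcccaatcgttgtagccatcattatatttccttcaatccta
Gm10925: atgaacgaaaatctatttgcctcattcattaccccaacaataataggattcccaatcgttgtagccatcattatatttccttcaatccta
mt-Co1: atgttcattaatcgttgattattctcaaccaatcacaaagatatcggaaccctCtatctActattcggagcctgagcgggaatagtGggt
Gm13340: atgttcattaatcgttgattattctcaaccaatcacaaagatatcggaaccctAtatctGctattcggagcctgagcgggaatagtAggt

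**Figure D4:**
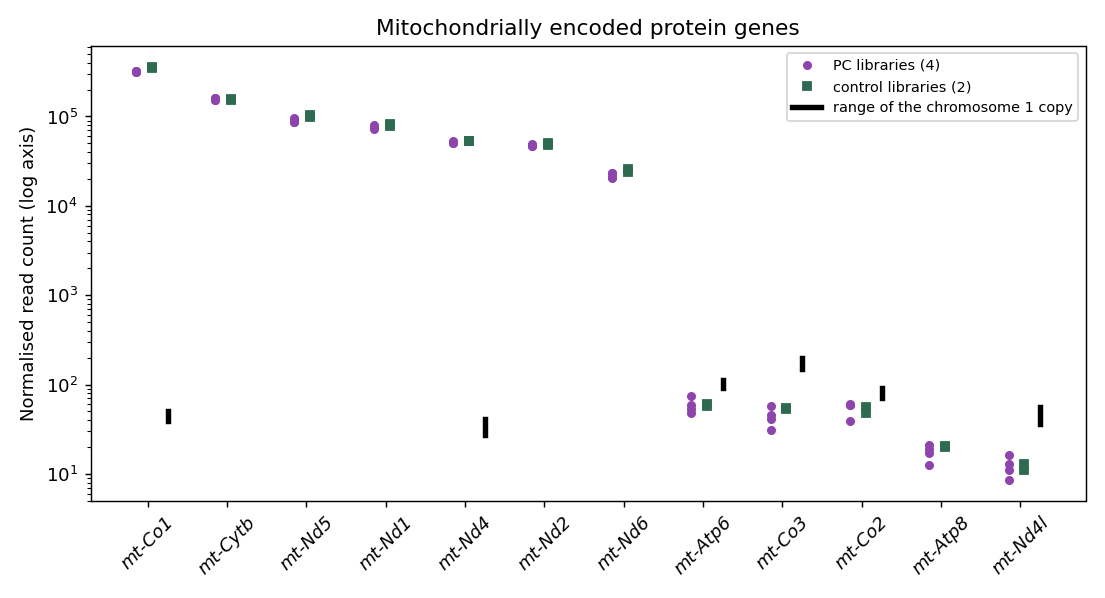
Normalised read counts, on a log axis, of the 12 listed mitochondrially encoded protein genes in the 4 PC libraries (circles) and the 2 control libraries (squares), with black bars for the range over libraries of a chromosome 1 copy, which covers part of mt-Co1 and mt-Nd4 and all of the others shown. mt-Co2, mt-Co3, mt-Atp6 and mt-Nd4l lie under the level of their copies, far below the 7 abundant genes.

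Transfer RNA genes of the mitochondrial genome are poorly sampled by poly(A)+ libraries. Of the 14, 1 rose and 3 fell, or 2 and 2 under quantile normalisation and 2 and 3 with totals without the 50 most abundant genes. In the reported fit 28.6% of them passed, against 67.9% of all genes tested. The number that fell was 6 without PC sg5 replicate 1 and 2 in each of 4 other cases where 1 library was left out. mt-Tl1, one of the genes for leucine transfer RNA, had 636 and 655 normalised counts with PC sg2, 708 and 626 with PC sg5, and 442 and 442 in the control, a log2 fold change of 0.57 ± 0.08 (SE). mt-Tl2, the other leucine gene, had 46.0 and 51.0 with PC sg2, 63.7 and 21.4 with PC sg5, and 76.1 and 74.0 in the control, a log2 fold change of -0.81 ± 0.33 (SE). That call was lost in 8 of the alternatives, among them DESeq2 and the removal of PC sg5 replicate 2, which gave -0.43. mt-Tn fell more firmly, with 2112 and 2161 with PC sg2, 2796 and 2270.0 with PC sg5, and 3337 and 3219 in the control.

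Genes that maintain and read mitochondrial DNA were mostly higher with both PC guides. Of 24 such genes 23 were listed, with 17 higher, 1 lower and 5 not past the threshold, and a median log2 fold change of 0.48. Over all genes tested 34.3% were higher and 33.6% lower. Twnk, the replicative helicase, had 3336 and 3479 normalised counts with PC sg2, 3416 and 3289.6 with PC sg5, and 1725 and 1839 in the control. Polrmt, the mitochondrial RNA polymerase, and Tfam, which packages the DNA and starts transcription, rose by 0.75 ± 0.04 and 0.48 ± 0.04 (SE) on the log2 scale. Lrpprc, which keeps mitochondrial messenger RNAs stable, rose to 9392 ± 152 (SD, n = 4) in the PC libraries against 6713 ± 30.7 (SD, n = 2) in the control. Pnpt1, a mitochondrial RNA-degrading enzyme, was the gene that fell, with 2713 ± 80.0 (SD, n = 4) in the PC libraries against 4455 ± 63.9 (SD, n = 2) in the control.

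Of 9 nuclear regulators of respiratory genes, 8 rose, against 34.3% of all genes tested, with a median log2 fold change of 0.49. Ppargc1a, the PGC-1alpha coactivator, had 431 and 431 normalised counts with PC sg2, 372 and 399.7 with PC sg5, and 188 and 157 in the control, a log2 fold change of 1.24 ± 0.11 (SE). Its relatives Ppargc1b and Pprc1 rose by 1.37 ± 0.13 and 1.04 ± 0.03 (SE) on the log2 scale. Nrf1, the factor of the palindrome above, rose by 0.44 ± 0.05 (SE) and Gabpa, an ETS factor, by 0.25 ± 0.03 (SE). Myc, a growth factor-induced regulator that also binds the E-box, stood at 740.2% of its control mean, and Esrra, a nuclear receptor, did not pass, at -0.04 ± 0.06 (SE). These are values of other genes in the same libraries, and their part in the members' changes was not tested.

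Coenzyme Q, which takes electrons from complexes I and II, is made by a set of 13 listed genes. Of these 7 rose, 3 fell and 3 did not pass, at a median of 0.20, while 34.3% of all genes tested rose and 33.6% fell. Coq10b, which carries coenzyme Q for respiration, rose by 1.43 ± 0.06 (SE) on the log2 scale, to 1494 ± 65.4 normalised counts (SD, n = 4) in the PC libraries against 554 ± 46.3 (SD, n = 2) in the control. Coq8a, an atypical kinase of the pathway, fell, with 115 ± 24.0 (SD, n = 4) in the PC libraries against 213 ± 11.5 (SD, n = 2) in the control. Other enzymes that feed electrons into coenzyme Q moved in both directions, 5 higher and 2 lower of 7 listed. Dhodh, which links pyrimidine synthesis to the chain, rose by 0.65 ± 0.06 (SE), and Etfa, a carrier from fatty acid oxidation, fell by 0.36 ± 0.03 (SE) on the log2 scale.

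**Figure D5:**
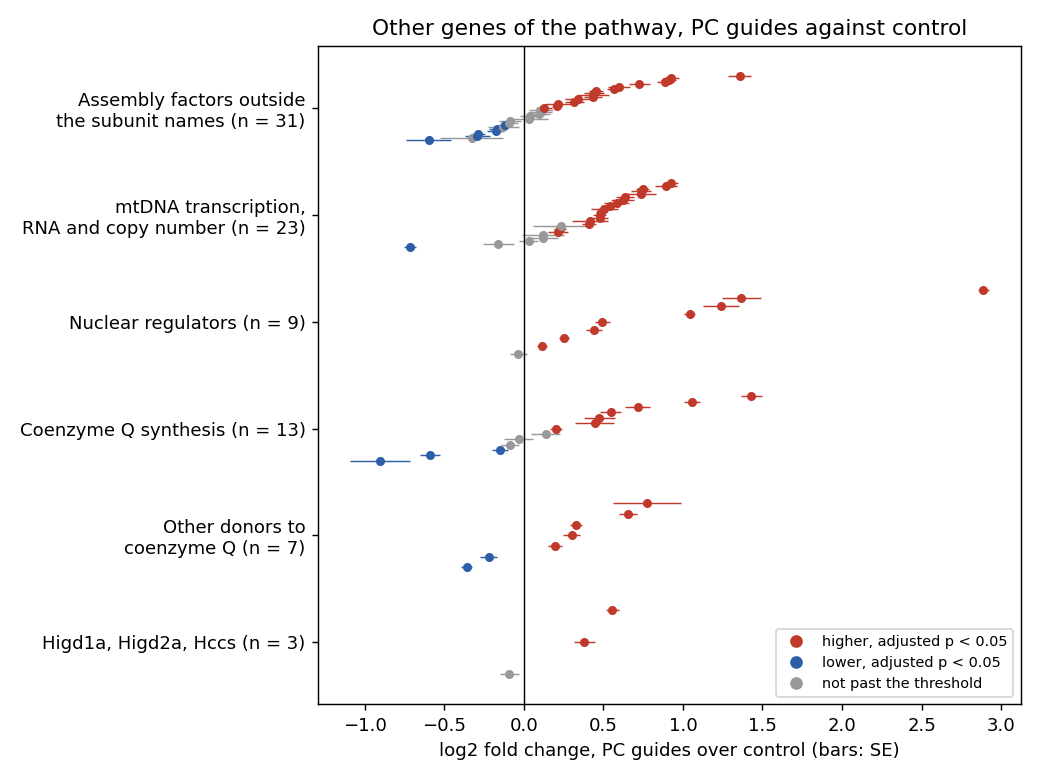
Log2 fold change for both PC guides over control, on the horizontal axis, of listed genes of the pathway outside the symbol rule, with bars for the standard error. The 9 nuclear regulators and the 23 genes of mitochondrial DNA transcription, RNA and copy number lie mostly to the right of 0, with Myc farthest right and Pnpt1 to the left.

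The comparisons of each guide with control share the control libraries and are given side by side. PC sg2 against control had 41 of the 130 members higher and 43 lower, while 64.5% of all genes passed (32.9% higher and 31.6% lower). PC sg5 against control had 47 members higher and 36 lower, while 64.5% of all genes passed (32.6% higher and 31.8% lower). Under quantile normalisation the PC sg5 counts became 52 and 26. Cycs had log2 fold changes of 1.16 with PC sg2 and 1.23 with PC sg5, and Atp5a1 had -0.34 with PC sg2 and -0.31 with PC sg5. Cox10 had 1.11 with each guide.

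The direct comparison of PC sg5 with PC sg2 found 0 of the 130 members past the threshold by limma, against 0.242% of all genes, and 30 at an unadjusted p under 0.05, of which 27 were higher with PC sg5. Over all genes 1760 (10.6%) had an unadjusted p under 0.05, 772 of them higher and 988 lower with PC sg5. DESeq2 also called 0 members, against 91 of all genes, and edgeR with TMM called 2, against 68 of all genes. For 106 of the 130 members (81.5%) the 95% interval of the log2 difference lay within 0.5 in either direction, against 65.4% of all genes. The median half-width of the interval was 0.10 for the members and 0.17 for all genes. Nuclear members were also more abundant, with a median of 3222 normalised counts against 872 for all genes. Genes of like abundance were not compared here. Ndufb3 and Cox7b, named after their values were seen, were the members that edgeR called, with log2 differences of 0.31 ± 0.07 and 0.20 ± 0.04 (SE) by limma. Ndufb3, an accessory subunit of complex I, had 1162 and 1203 normalised counts with PC sg5, 982 and 924 with PC sg2, and 1401 and 1371 in the control. Cox7b, a small complex IV subunit, had 3859 and 3741 with PC sg5, 3361 and 3272 with PC sg2, and 4174 and 4451 in the control. In both genes, which were lower in the PC libraries, the PC sg5 libraries lay between the PC sg2 and the control libraries. Pcx had the same order. Cycs, which rose, lay further from control with PC sg5 than with PC sg2, at log2 fold changes of 1.23 and 1.16. Any link to the level of Pcx was not tested.

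Most nuclear members had slightly more counts with PC sg5: 84 of the 104 nuclear members had a log2 difference of PC sg5 over PC sg2 above 0, with a median of 0.05, against -0.0049 over all genes. The 56 nuclear members with under 450 coding bases had a median difference of 0.08, and the 48 longer ones 0.02. Protein-coding genes as a whole had a similar gap, with medians of 0.05 for the 890 short and -0.01 for the 12240 long ones, so the gap is not particular to the members. Over the 104 genes the difference and the log2 coding length had a Pearson correlation of -0.36 and a Spearman correlation of -0.52, against -0.05 and -0.14 over 13130 protein-coding genes. These correlations run across genes that share the same 4 libraries and their depth, and PC sg5 replicate 2 was the shallowest library. They describe these libraries only.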

How the data were processed

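RNA of 6 libraries, 2 for each of PC sg2, PC sg5 and control, was measured as normalised gene counts. Per the submitters' processing notes, the tools were bcl2fastq 2.17, Trimmomatic, STAR, featureCounts and DESeq2 and the build was GRCm38; for settings, annotation and strand use, nothing is stated in what was at hand, and per the labels' protocols the library kit was NEBNext Ultra, which does not mark strand. The deposited values are a signal, read counts divided by 1 size factor per library by the authors and not corrected for gene length, as the values themselves show: 100% are whole multiples of 1 step per library (tolerance 0.01 reads), which gave back the reads and the depths.

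Gene names of 16491 of 16540 IDs came from GENCODE M21, and 49 had none. limma 3.58.1 in R 4.3.3 was fitted on log2(normalised count + 1), a scale that understates changes of low genes, in 1 model of 3 groups with an intensity trend, after keeping the 16526 genes with 10 or more normalised counts in 2 or more libraries. Calls used a two-sided test at a Benjamini-Hochberg adjusted p under 0.05 over all genes tested. The "both PC guides" contrast is the mean of the PC sg2 and PC sg5 group means minus control. The scripts were tested on simulated data. On the recovered reads edgeR 4.0.16 called 11424 genes for both PC guides against control, limma 11222 and DESeq2 1.42.0 10604. Other alternatives changed the pseudocount, filter, scaling, variance model, groups and libraries. Coding sequences were compared with blastn 2.17.0+, and 15 of the 104 nuclear members have a copy of at least 97% identity over at least 90% of the coding sequence.

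The members and lists were chosen with earlier results of these data known. Named genes are, per class, the called members with the highest and lowest log2 fold change, and Cycs, Cyc1, complex II and subunits with tissue or condition specific forms; all other members named were chosen after their values were seen. Same-numbered replicates deviated with correlations of 0.012 to 0.044, so the numbers were not taken as pairs.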

Additional observations from a re-analysis of the deposited data

Results flagged for a closer look

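mt-Tv, the mitochondrial valine transfer RNA gene, differed in direction between the guides: it had 3.12 and 3.19 normalised counts with PC sg2, 19.2 and 17.1 with PC sg5, and 13.4 and 16.0 in the control, so both PC sg2 libraries lay below the controls and both PC sg5 libraries above them. The log2 difference of PC sg5 over PC sg2 was 2.20 ± 0.63 (SE) and did not pass by limma (adjusted p = 0.171). The PC sg2 values lie near the level of 3 reads.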

How the results depend on the processing

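For both PC guides against control, 70 to 93 members passed under all alternatives (72 to 91 with 1 library left out, 92 with the replicate block), against 87 in the reported fit. For PC sg2 the range was 66 to 89 and for PC sg5 66 to 85, with 88 and 85 under the replicate block. For PC sg5 against PC sg2, 0 became 2 with edgeR and TMM, a pseudocount of 10, a mean of at least 50, or totals without the 50 most abundant genes, 1 with TMM scaling, 4 with the replicate block (Ndufb3, Cox7b, Cox6c and mt-Tn) and 0 to 2 with 1 library left out. The replicate numbers mark no known pairing, so the block is given here only. The 5 mt- protein genes became 1 without the intensity trend, 6 with the block and 2 to 6 with 1 library left out. mt-Nd5 turned to 0.13 under quantile normalisation, so its direction depended on the scaling. For single named genes 768 alternative values stayed on the same side of the threshold, with the direction kept where they passed. Direction was not compared where neither fit passed. A further 15 newly passed and 11 no longer passed, and the cause was not tested. Depth limits genes near 3 reads, such as Cox4i2 and the low mt- genes.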
